A study of Homo sapiens with 12 samples.

Results

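The genes described here are 10 Kruppel-like factors other than KLF9: KLF2, KLF3, KLF4, KLF5, KLF6, KLF7, KLF10, KLF11, KLF13 and KLF16. They were taken by symbol from the 56832 gene symbols counted in each library, and all 10 were listed. RNA was sequenced from SW1736, an established human anaplastic thyroid cancer cell line, carrying either a pCDH vector for the thyroid hormone receptor beta (pCDH-TRB, called TRB cells) or the empty vector (pCDH-EV, called EV cells). All cells were first kept for 24 h in medium without phenol red and with hormone-stripped serum. They then received 10 nM triiodothyronine (T3), the active thyroid hormone, or its NaOH vehicle for 24 h. Both kinds of cells received both treatments, which gives 4 groups of 3 libraries each. All 12 libraries come from the same cell line, and the labels do not say whether the TRB and EV cells are clones or pools.

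Kruppel-like factors are transcription factors that bind GC-rich and CACCC sequences through zinc fingers at their C-terminal end. KLF2, KLF4, KLF5, KLF6 and KLF7 are known mainly as activators that recruit histone acetyltransferases, although KLF4 also represses. KLF3 represses through the CTBP co-repressors, and KLF10, KLF11, KLF13 and KLF16, like KLF9, can recruit the SIN3A and histone deacetylase complex. KLF9 itself is a well known gene induced by thyroid hormone, so it serves below as a reference and is not counted.

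The introduced receptor and the hormone were both visible in the counts. THRB, the receptor gene, stood at 13 to 15.6 CPM (a library-scaled count) in EV cells with vehicle and at 79.8 to 80.4 in TRB cells with vehicle. It was at 12.3 to 18.3 CPM in EV cells with T3 and at 322, 190 and 297 in the TRB libraries with T3. THRB thus rose with T3 in TRB cells, by 1.75 on the log2 scale (edgeR adjusted p = 0.000434). Its log2 fold change in EV cells was 0.03 (adjusted p = 0.982). Receptor RNA was therefore not at a fixed level in TRB cells, and the part of its rise in the results below was not tested. KLF9 was at 13.1 to 14.6 CPM in EV cells with vehicle and 123 to 169 with T3, and at 7.93 to 10.9 in TRB cells with vehicle and 104 to 257 with T3. Its log2 fold change with T3 was 4.05 in TRB cells (edgeR adjusted p = 5.25e-05) and 3.41 in EV cells (adjusted p = 0.00272). CPM here is a gene's share of the reads in genes, scaled to 1000000 reads by the trimmed-mean (TMM) method.

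Counts in genes ranged from 3819306 to 13086717 per library. TRB with T3 replicate 2 stood apart: across 12130 genes its departure from the other 2 libraries of its group fell with gene GC content (Spearman rho -0.886, across genes, which are not independent replicates). Each tested member's T3 response in TRB cells is therefore given with all 12 libraries and with 11, without that library. The same holds for the edgeR count of members called in each comparison. Some other values are given for 12 libraries only. The edgeR biological coefficient of variation was 0.329 with 12 libraries and 0.131 with 11. All 6 epithelial markers looked for were above a mean of 1 CPM, and their summed level was 2030 to 5020 CPM. Of 6 thyroid markers, PAX8 and NKX2-1 had a mean of at least 1 CPM, TSHR and FOXE1 were at 0 in every library, and TG (thyroglobulin) did not exceed 0.625 CPM. Their summed level was 6.3 to 7.08 CPM in EV cells with vehicle, 4.94 to 6.07 with T3, 6.13 to 8.36 in TRB cells with vehicle and 0.899 to 5.1 with T3. Of 3 mesenchymal markers FN1 alone was above 1 CPM on average, while CDH2 was at 0 throughout. Their summed level was 15 to 17.5 CPM in EV cells with vehicle, 66.4 to 74.7 with T3, 10.1 to 10.9 in TRB cells with vehicle and 148 to 303 with T3. Of 5 blood and endothelial markers CD14 alone reached a mean of 1 CPM, CD3E was at 0 throughout, and the sum was 0.572 to 1.01, 1.06 to 2.53, 0.407 to 0.755 and 0.18 to 9.99 CPM in the same order of groups. The part of these marker differences in the results below was not tested. In RNA from whole cultures, fewer cells of a kind and less RNA per cell cannot be told apart.

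KLF4 and KLF11 were the 2 members that fell with T3 in TRB cells in both fits, so the sequence before their starts is shown. The RefSeq (GRCh38.p14) promoter windows used here covered 8 of the 10 genes, in 13 windows of 250 bases. No window for KLF3 or KLF10 was among those used, so these 2 genes were not searched. Their absence here does not mean that RefSeq lists no start for either gene. For KLF4 the whole window is printed, chr9:107489770-107490019 on the minus strand. It holds no exon in GENCODE 29, although an annotated KLF4 transcript begins further upstream. For KLF11 the window before the more downstream of 2 RefSeq starts is printed up to the first GENCODE 29 exon base within it, chr2:10043971-10044174 on the plus strand, 204 bases. Annotated KLF11 sequence also begins further upstream of this stretch. Capitals mark GC boxes (GGGCGG or CCGCCC) and the cyclic AMP response element (CRE, TGACGTCA).
KLF4: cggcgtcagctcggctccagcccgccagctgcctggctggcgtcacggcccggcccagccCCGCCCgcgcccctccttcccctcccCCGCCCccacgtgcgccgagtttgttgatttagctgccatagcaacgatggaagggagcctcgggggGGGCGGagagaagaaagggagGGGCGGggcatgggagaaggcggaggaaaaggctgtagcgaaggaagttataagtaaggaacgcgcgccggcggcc
KLF11: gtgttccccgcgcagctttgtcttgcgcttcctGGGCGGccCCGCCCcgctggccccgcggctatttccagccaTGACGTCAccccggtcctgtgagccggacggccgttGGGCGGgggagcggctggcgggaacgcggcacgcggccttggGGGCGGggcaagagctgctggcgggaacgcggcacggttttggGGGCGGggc

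The KLF4 stretch holds 4 GC boxes and the KLF11 stretch 5, with 69.2% and 75% G and C. A GC box was present on either strand in 42.6% of all 35116 RefSeq windows of 250 bases, and in 9 of the 13 member windows. Each of the 8 member genes with a window held it in at least 1, where some genes have several windows. The CRE was present in 1.65% of all windows and, among the members, only in this window of KLF11, where it shares 2 bases with a CACCC motif. CACCC was present in 54.7% of all windows and in 6 of the 13 member windows. The thyroid hormone receptor half-site AGGTCA was present in 12.1% of all windows and in 1 member window, upstream of a KLF7 start. A direct repeat of it with 4 bases between was present in 0.0142% of all windows and in none of the 13, and the AP-1 motif TGANTCA in 6.57% of all windows and none of the 13. These are matches of letters on either strand, and binding was not measured.

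Among the members, KLF5 had the highest level per length. On the scale of CPM per kb of annotated exon, KLF5 averaged 124 over the 12 libraries (84 to 165), KLF3 27.9, KLF10 21.9, KLF13 14.5, KLF16 12.4, KLF4 12.3, KLF6 6.45 and KLF11 4.59. KLF5 was above KLF3 in 12 of 12 libraries, KLF3 above KLF10 in 11, KLF10 above KLF13 in 10 and KLF13 above KLF16 in 9. KLF16 was above KLF4 in 5 of 12 libraries, so the order of these neighbours did not hold across libraries. KLF4 was above KLF6, and KLF6 above KLF11, in all 12. KLF2, known from endothelium and quiescent T cells, had 0 to 5 counts per library, 27 in all, with 1 library at 0. KLF7, known from the developing nervous system, had 0 to 4 counts, 10 in all, and was at 0 in 9 libraries. A floor of 3 counts corresponds to 0.225 to 0.759 CPM in these libraries. KLF2 and KLF7 therefore lay at or near the limit of detection, did not pass the filter on low counts and were not tested.

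**Figure D1:**
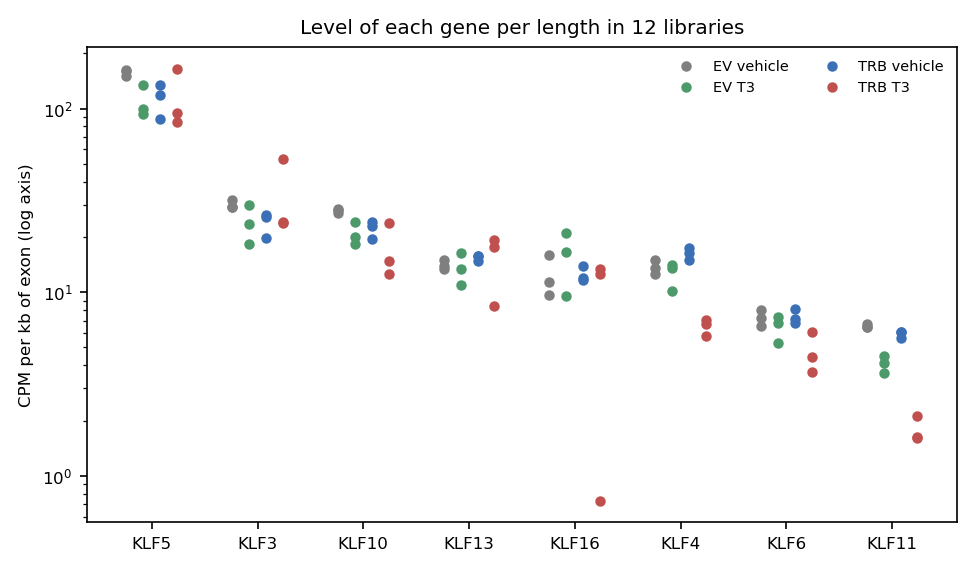
Level of the 8 tested members on a log axis, in CPM per kb of exon; each point is 1 library, coloured by group. KLF5 spans 84 to 165 and KLF11 1.6 to 6.71; the low KLF16 point is TRB with T3 replicate 2.

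The main question put to the members was whether T3 changed them in cells with and without the introduced receptor. In TRB cells T3 lowered KLF4 and KLF11, and with 11 libraries also KLF6 and KLF10. With 12 libraries 2 of the 8 tested members passed an edgeR adjusted p of 0.05, both lower, where 14.7% of all 14431 tested genes passed in either direction. With 11 libraries 4 of 8 passed, all lower, where 33.3% of 14825 genes passed. The members' median log2 fold change was -0.43 with 12 libraries and -0.47 with 11, and that of all tested genes 0.01 and -0.01. DESeq2 on 12 libraries called 3 members, KLF4, KLF6 and KLF11, with 17.5% of all genes called.

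In EV cells edgeR called 0 of the 8 members for T3 with 12 libraries, with 0.229% of all genes called. At an unadjusted p under 0.05 it was 1 member, KLF11, with 6.1% of all genes, and DESeq2 called 1, also KLF11, with 1.05% of all genes. With 11 libraries 1 of 8 was called, KLF11, lower, with 7.33% of all genes called. The median log2 fold change of the members was -0.25 with 12 libraries and -0.23 with 11, and that of all tested genes 0.00 and 0.01. Offsets that remove each library's trend of counts with GC content (GC offsets), on 11 libraries, called 5 members, all lower (KLF4, KLF5, KLF10, KLF11 and KLF13, from -0.65 for KLF11 to -0.27 for KLF13), with 17.7% of 12306 genes called.

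**Figure D2:**
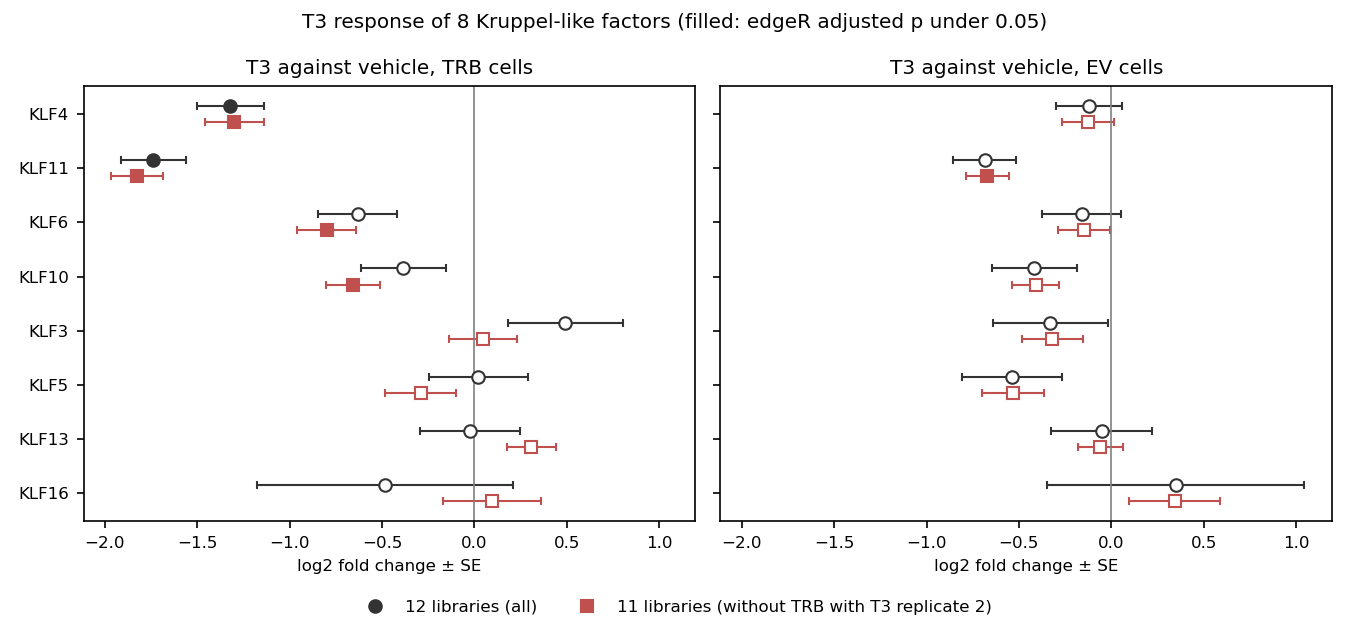
Log2 fold change of T3 against vehicle with its standard error, in TRB cells (left) and EV cells (right), for the fit on 12 libraries (circles) and on 11 (squares); filled symbols passed an edgeR adjusted p of 0.05. KLF4 and KLF11 are filled in both fits in TRB cells, and values near 0, as for KLF5 and KLF13 with 12 libraries in TRB cells, change sign with the scaling.

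KLF4 (GRCh38, chr9:107484852-107490482, minus strand) is an activator and repressor known for holding epithelial cells out of the cell cycle and as a reprogramming factor. In TRB cells its CPM in replicates 1, 2 and 3 was 60.2, 63.7 and 54.7 with vehicle and 21.2, 24.5 and 25.7 with T3. Every T3 library was below every vehicle library. In comparisons that involve T3 the share of all genes without overlap was not computed. Statements on overlap there, here and below, describe these libraries only. The mean with T3 was 0.4 times that with vehicle (23.8 ± 2.32 against 59.5 ± 4.51, SD, n = 3 each). In edgeR KLF4 fell by 1.32 in log2 units (SE 0.181, adjusted p = 0.000704), and by 1.30 with 11 libraries (adjusted p = 4.79e-05). In EV cells KLF4 was at 54.9, 46.3 and 49.4 CPM with vehicle and 51.5, 37 and 49.9 with T3. These groups overlapped, and the log2 fold change was -0.12 (SE 0.178, adjusted p = 0.941).

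KLF4 was also lower in TRB than in EV cells when both had T3, with no overlap between the groups. The log2 fold change was -0.95 (SE 0.181, adjusted p = 0.0106), and -0.91 with 11 libraries (adjusted p = 0.00169). This call was lost without EV with T3 replicate 1 or replicate 3 (adjusted p = 0.0614 and 0.0514), with no count filter (adjusted p = 0.0641), in the 2 groups fitted alone (adjusted p = 0.274) and with GC offsets on 12 libraries (-0.44, adjusted p = 0.319). With vehicle the EV and TRB groups of KLF4 overlapped (log2 fold change 0.25, adjusted p = 0.9997). The T3 response of KLF4 differed between TRB and EV cells by -1.20 (SE 0.253, adjusted p = 0.0348), and by -1.17 with 11 libraries (adjusted p = 0.003). That difference still passed when EV with T3 replicate 2 or TRB with T3 replicate 2 or 3 was left out. Leaving out any of the other 9 libraries gave an adjusted p of 0.0631 to 0.116 with values of -1.30 to -1.14. It did not pass with no count filter (adjusted p = 0.179) or with GC offsets on 12 libraries (-0.57, adjusted p = 0.372), and did with these on 11 (-1.14, adjusted p = 1.47e-05).

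**Figure D3:**
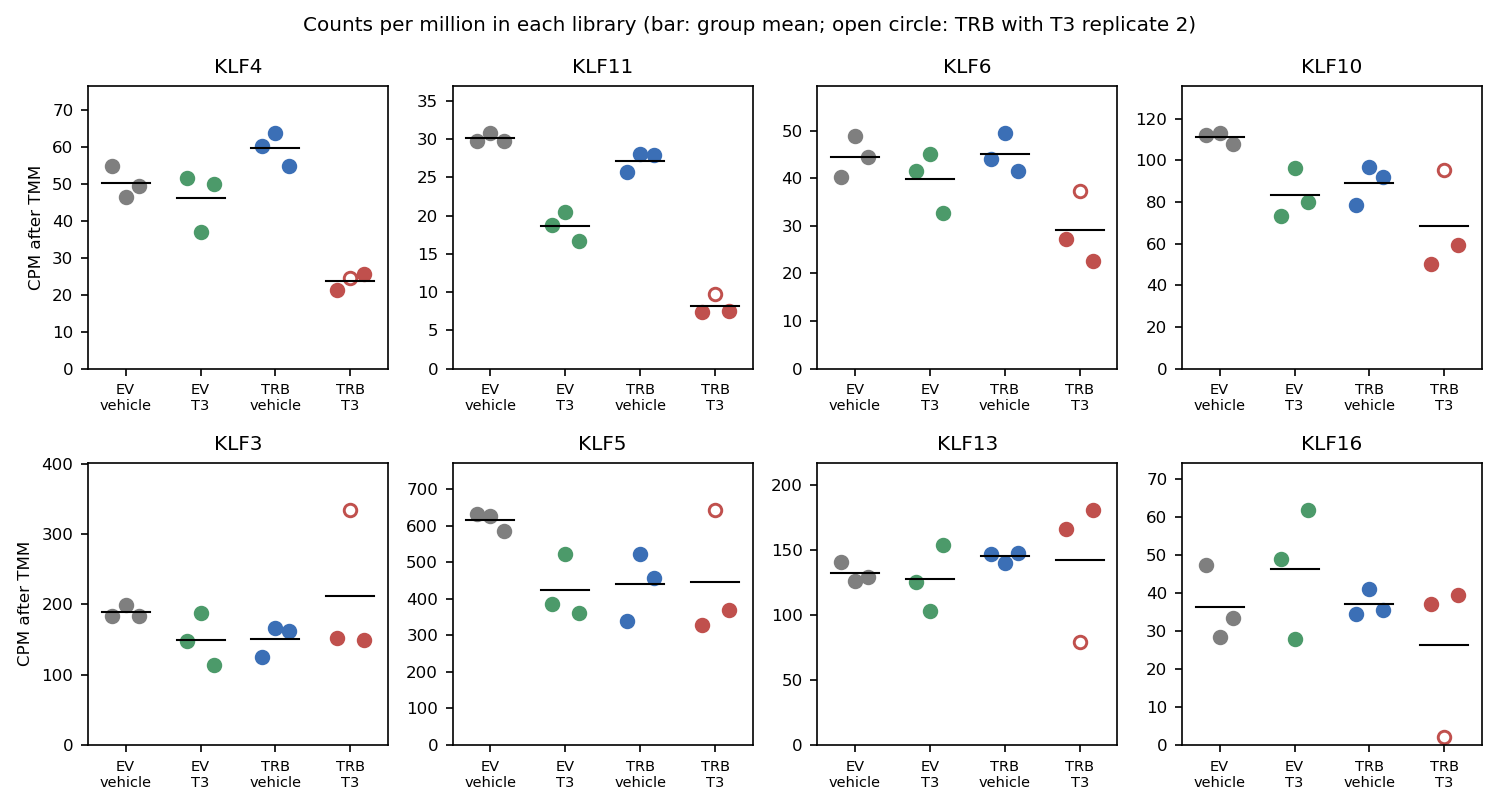
CPM after TMM scaling of the 8 tested members in each library, with a bar at the group mean and an open circle for TRB with T3 replicate 2; each panel has its own axis from 0. KLF4 and KLF11 are lowest in the 3 TRB libraries with T3, and the open circle lies apart from replicates 1 and 3 for KLF3, KLF5, KLF10, KLF13 and KLF16.

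KLF11 (chr2:10042849-10054836, plus strand), a TGF-beta inducible repressor that recruits SIN3A, had the largest T3 response among the 8 members in TRB cells. Its CPM there was 25.7, 28 and 27.9 with vehicle and 7.35, 9.71 and 7.49 with T3. The mean with T3 was 0.301 times that with vehicle (8.19 ± 1.32 against 27.2 ± 1.28, SD, n = 3 each), and the groups did not overlap. In edgeR KLF11 fell by 1.74 in log2 units (SE 0.175, adjusted p = 0.000104), and by 1.82 with 11 libraries (adjusted p = 7.12e-07). In EV cells it was at 29.8, 30.8 and 29.8 CPM with vehicle and 18.8, 20.5 and 16.7 with T3. These groups did not overlap either. The log2 fold change was -0.69 (SE 0.17, adjusted p = 0.217) with 12 libraries, short of the threshold, and KLF11 fell by 0.67 with 11 (SE 0.116, adjusted p = 0.00569).

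With T3, KLF11 was lower in TRB than in EV cells, with a log2 fold change of -1.20 (SE 0.175, adjusted p = 0.00261), and -1.29 with 11 libraries (adjusted p = 4.56e-05). In the 2 compared groups fitted alone this did not pass (-1.18, adjusted p = 0.167). With vehicle its 3 TRB libraries were also below its 3 EV libraries, by a log2 fold change of -0.15 that did not pass (adjusted p = 0.9997, and 0.521 with 11 libraries). The difference in T3 response between TRB and EV cells was -1.05 (SE 0.241, adjusted p = 0.049), and -1.16 with 11 libraries (adjusted p = 0.00119). With 12 libraries this lay just inside the threshold: leaving out any library other than TRB with T3 replicate 2 gave -1.14 to -1.003 with an adjusted p of 0.0604 to 0.116. With no count filter it did not pass (adjusted p = 0.284), and with GC offsets on 12 libraries it did (-1.18, adjusted p = 0.000207). In GENCODE 29 an antisense gene covers 9.07% of the exon bases of KLF11, and whether the counting used strand is not given, so reads from that stretch are uncertain.

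KLF6 (chr10:3775996-3785281, minus strand), an activator described as a tumour suppressor, and KLF10, a TGF-beta inducible early gene close to KLF11, gave negative log2 fold changes with T3 in TRB cells that passed in edgeR on 11 libraries and not on 12. KLF6 was at 44, 49.5 and 41.6 CPM in TRB cells with vehicle and 27.2, 37.4 and 22.6 with T3. The groups did not overlap, with replicate 2 the highest of the T3 libraries. Its log2 fold change was -0.63 with 12 libraries (SE 0.215, adjusted p = 0.0752) and -0.80 without that library (SE 0.16, adjusted p = 0.00198). With 12 libraries KLF6 also passed in DESeq2, with upper-quartile scaling and with GC offsets (adjusted p = 0.0428, 0.0387 and 0.000298). In EV cells KLF6 was at 40.2, 48.9 and 44.5 CPM with vehicle and 41.5, 45.2 and 32.7 with T3, overlapping, with a log2 fold change of -0.16 (adjusted p = 0.94). The difference between these responses did not pass with 12 or 11 libraries (-0.47, adjusted p = 0.359, and -0.65, adjusted p = 0.0583), and passed with GC offsets (-0.68, adjusted p = 0.0179).

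KLF10 was at 78.4, 96.8 and 91.7 CPM in TRB cells with vehicle and 50.3, 95.2 and 59.2 with T3. Replicate 2 with T3 lay within the vehicle range, and the other 2 were below it. The log2 fold change was -0.39 with 12 libraries (adjusted p = 0.277) and -0.66 without replicate 2 (SE 0.146, adjusted p = 0.0039). In EV cells KLF10 was at 112, 113 and 108 CPM with vehicle and 73.3, 96.3 and 80 with T3, with no overlap. That log2 fold change was -0.42 (adjusted p = 0.912), and -0.41 with 11 libraries (adjusted p = 0.071). The difference between these 2 log2 fold changes was 0.03 (adjusted p = 0.957), with its sign turned by upper-quartile scaling (-0.08).

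KLF5 (chr13:73054976-73077542, plus strand), an activator of proliferation in epithelia and the most abundant member per length, did not pass edgeR's test for T3 in either kind of cells, on 12 or 11 libraries. In EV cells it was at 631, 627 and 586 CPM with vehicle and 386, 523 and 362 with T3, without overlap. Its log2 fold change there was -0.54 (SE 0.269, adjusted p = 0.878), and -0.53 with 11 libraries (adjusted p = 0.0736). With GC offsets on 11 libraries it passed (-0.52, adjusted p = 0.0142). In TRB cells KLF5 was at 340, 522 and 458 CPM with vehicle and 327, 644 and 369 with T3, overlapping. There the log2 fold change was 0.02 (adjusted p = 0.965), -0.29 without replicate 2 (adjusted p = 0.271) and -0.04 with upper-quartile scaling, so no direction can be given.

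KLF3 (chr4:38664196-38701042, plus strand), the repressor that binds CTBP, was at 125, 166 and 162 CPM in TRB cells with vehicle and 152, 335 and 149 with T3. Only replicate 2 lay above the vehicle range. KLF3 had a log2 fold change of 0.49 with 12 libraries (SE 0.31, adjusted p = 0.297) and 0.05 with 11 (adjusted p = 0.871). In EV cells KLF3 was at 184, 199 and 183 CPM with vehicle and 148, 188 and 114 with T3, overlapping (-0.33, adjusted p = 0.935). In GENCODE 29 the antisense gene KLF3-AS1 covers 4.22% of its exon bases.

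KLF13 (chr15:31326855-31435665, plus strand), a SIN3A-binding factor known from lymphocytes and heart, was at 147, 140 and 148 CPM in TRB cells with vehicle and 166, 79.5 and 181 with T3. Replicates 1 and 3 were above the vehicle range and replicate 2 below it. The log2 fold change was -0.03 with 12 libraries (adjusted p = 0.955), 0.01 in DESeq2, 0.31 with 11 libraries (adjusted p = 0.0994) and 0.54 with GC offsets on 12 libraries (adjusted p = 0.0421). After removal of each library's GC trend, KLF13 in TRB cells was at 126, 125 and 130 CPM with vehicle. With T3 it was then at 140, 287 and 147, so replicate 2 went from the lowest to the highest library. In EV cells KLF13 was at 141, 126 and 129 CPM with vehicle and 125, 103 and 154 with T3, overlapping (-0.05, adjusted p = 0.975). With GC offsets on 11 libraries KLF13 was higher with T3 in TRB cells (0.17, adjusted p = 0.0303) and lower in EV cells (-0.27, adjusted p = 0.00546), and the difference between these responses passed (0.44, adjusted p = 0.000969). That difference was 0.03 with 12 libraries and no offsets (adjusted p = 0.968), and -0.06 with upper-quartile scaling.

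KLF16 (chr19:1852399-1863568, minus strand), another SIN3A-binding repressor, showed the widest spread. In TRB cells it was at 34.5, 41.2 and 35.5 CPM with vehicle and 37.1, 2.16 and 39.6 with T3, where replicate 2 held 0.0563 times the mean of replicates 1 and 3. KLF16 had a log2 fold change of -0.48 (SE 0.693, adjusted p = 0.648) with 12 libraries and 0.10 with 11 (adjusted p = 0.817). In EV cells KLF16 was at 47.3, 28.4 and 33.4 CPM with vehicle and 48.9, 28 and 62 with T3, overlapping (0.35, adjusted p = 0.941). An antisense gene covers 16.3% of its exon bases in GENCODE 29.

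The members were not equally exposed to the library that stood apart. The GC content of the longest transcript rose from 41.5% for KLF3 through 45.9% to 47.2% for KLF6, KLF11, KLF5 and KLF10 to 55% for KLF4, 57.6% for KLF13 and 67.8% for KLF16, against a median of 48.3% over tested genes. KLF16 was at the 99th percentile. On the log2 scale, replicate 2 of TRB with T3 differed from the mean of replicates 1 and 3 by 1.15 for KLF3, -1.12 for KLF13 and -4.02 for KLF16. The trend over all genes at the same GC content was 0.92, -2.12 and -3.77. KLF13 thus lay above the trend, while KLF3 and KLF16 lay near it. KLF4 departed furthest from the trend: its difference was 0.06 where the trend was -1.52. KLF5 and KLF10 were 0.89 and 0.80 higher in that library, at a GC content where the trend was 0.06 and 0.02.

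**Figure D4:**
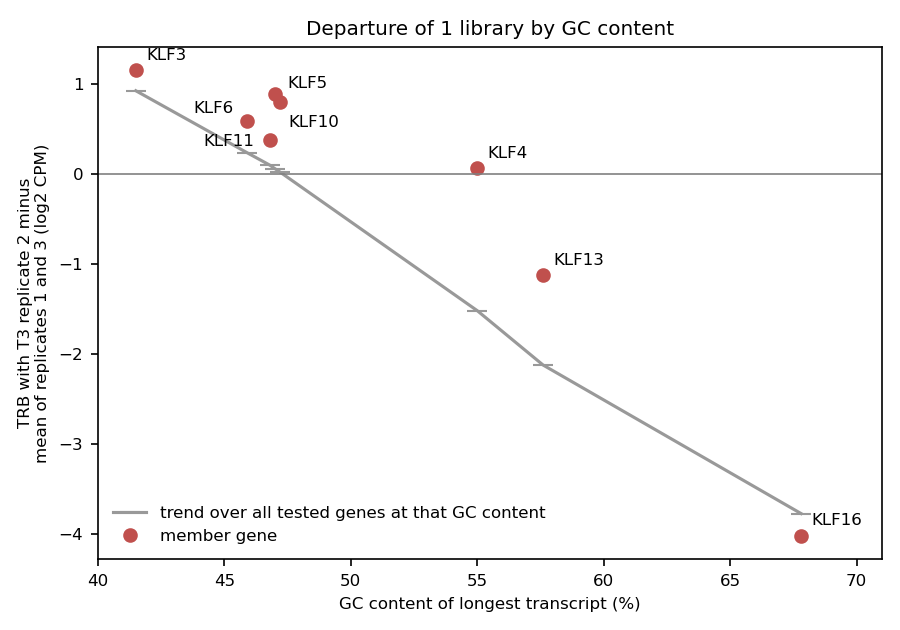
Difference of TRB with T3 replicate 2 from the mean of replicates 1 and 3 (log2 CPM) against the GC content of the longest transcript, for the 8 tested members (points), with the trend over all tested genes at those GC contents (grey). KLF16 and KLF3 lie near the trend, and KLF4, at 0.06, lies furthest above it. KLF13, KLF5 and KLF10 also lie above it, by less.

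Removing each library's GC trend brought KLF16 to 31.9, 23.3 and 28.9 CPM in TRB cells with T3. The spread of KLF16 within groups went from an SD of 1.25 to 0.165 on the log2 scale, and that of KLF3 from 0.396 to 0.125. For KLF4 the same step widened the spread from 0.172 to 0.475. Its adjusted CPM in TRB cells was 53.2, 59.8 and 50.4 with vehicle and 18.6, 60.6 and 22 with T3, so replicate 2 then lay above every vehicle library and the groups overlapped. KLF11 was at 25.6, 29.2 and 28.6 with vehicle and 7.17, 9.02 and 7.57 with T3 after the step, without overlap. With GC offsets the log2 fold changes of KLF4 and KLF11 for T3 in TRB cells were -0.87 (adjusted p = 0.0378) and -1.84 (adjusted p = 8.45e-08) on 12 libraries, and -1.44 and -1.91 on 11. These fits called 4 of 8 members with 42.8% of all genes, and 5 of 8 with 56.1%, shares near those over all genes.

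Between the vectors, 0 of 8 members were called by edgeR with vehicle, on 12 or 11 libraries, where 0.0208% and 0.0742% of all genes were called. At an unadjusted p under 0.05 there were 0 with 12 libraries and 2 with 11, KLF5 and KLF10, with 1.48% and 12.4% of all genes, and DESeq2 called 0, with 0.0263% of all genes. The 3 TRB libraries of KLF3, KLF5, KLF10 and KLF11 were each below their 3 EV libraries, as in 20.5% of all tested genes. KLF5 averaged 440 ± 92 CPM in TRB cells against 615 ± 25.1 in EV cells (SD, n = 3 each), a log2 fold change of -0.48 (adjusted p = 0.9997). With the 2 vehicle groups fitted alone, KLF5 and KLF10 passed (adjusted p = 0.0388 and 0.0496), with 11.2% of all genes called in that fit. The members' median was -0.07 with 12 libraries and -0.05 with 11, and that of all genes -0.02 and 0.00.

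With T3, 2 of 8 members were called between TRB and EV cells on 12 libraries, KLF4 and KLF11, both lower in TRB cells, where 6.68% of all genes were called. On 11 libraries it was 5 of 8, where 19.7% of all genes were called. KLF6 (-0.62, adjusted p = 0.0168) and KLF10 (-0.55, adjusted p = 0.0187) were then also lower in TRB cells, and KLF13 higher (0.52, adjusted p = 0.0172). KLF13 with T3 was at 166 and 181 CPM in TRB replicates 1 and 3 and at 125, 103 and 154 in EV cells. With 12 libraries the values were -0.46 for KLF6 (adjusted p = 0.209), -0.29 for KLF10 (adjusted p = 0.416) and 0.16 for KLF13 (adjusted p = 0.692). The members' median was -0.37 with 12 libraries and -0.39 with 11, against -0.01 and 0.02 over all genes. This comparison and that of T3 in TRB cells share the TRB libraries with T3.

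For the difference in T3 response between TRB and EV cells, 2 of 8 members were called on 12 libraries and 2 on 11, KLF4 and KLF11 each time, where 2.59% and 15.2% of all genes were called. The members' median was -0.22 and -0.25, against -0.01 and 0.03 over all genes.

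Other genes of the family and its pathway were read from lists. Of 17 further family members (other KLF genes and the related SP genes) 10 were tested. With T3 in TRB cells 2 passed, both higher, with 12 and with 11 libraries, where 14.7% and 33.3% of all genes passed. These were KLF9, the reference gene, and KLF12, a CTBP-binding repressor. KLF12 was at 29.6, 31.6 and 37.6 CPM with vehicle and 76.8, 135 and 67.6 with T3 in TRB cells, and rose by 1.5 on the log2 scale (SE 0.298, adjusted p = 0.00662), or by 1.18 with 11 libraries (adjusted p = 0.000709). With T3 it was also higher in TRB cells than in EV cells (1.19, adjusted p = 0.0376). In EV cells its log2 fold change with T3 was -0.05 (adjusted p = 0.978), and the difference in response passed only without replicate 2 (1.55, adjusted p = 0.0872, with 12 libraries, and 1.21, adjusted p = 0.0129, with 11).

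Of 20 partners and regulators of Kruppel-like factors, all tested, 1 passed for T3 in TRB cells with 12 libraries, where 14.7% of all genes did. This was WWP1, a ubiquitin ligase known to act on KLF2 and KLF5, which rose by 1.18 (SE 0.349, adjusted p = 0.045), or by 0.61 with 11 libraries (adjusted p = 0.0137). With 11 libraries 5 of 20 passed, 4 higher and 1 lower, where 33.3% of all genes did, so neither count exceeded the share over all genes. The co-activators EP300 (0.48) and CREBBP (0.53), MEF2D (0.67) and WWP1 were higher, and CTBP2 (-0.27) was lower.

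Of 18 described targets of these factors, 14 were tested. With T3 in TRB cells 4 passed with 12 libraries, 3 higher and 1 lower, and 8 with 11, 6 higher and 2 lower, where 14.7% and 33.3% of all genes did. CCND1, encoding cyclin D1, rose by 0.77 (SE 0.15, adjusted p = 0.00604), PDGFA, a growth factor, by 0.71 (adjusted p = 0.0113) and CDH1, encoding E-cadherin, by 0.66 (adjusted p = 0.0101). BIRC5, encoding survivin, fell by 0.55 (adjusted p = 0.0233). With T3, CCND1 was also higher in TRB cells than in EV cells (0.78, adjusted p = 0.0119). In EV cells none of the 14 was called for T3 with 12 libraries, where 0.229% of all genes were. With 11 libraries 3 were called in EV cells, where 7.33% of all genes were. CDKN1A (0.69) and PLAU (0.81) were higher and LGALS3 (-0.35) was lower. CDKN1A (1.555) and PLAU (0.83) were also among the 8 called in TRB cells with 11 libraries.

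The genes whose pattern over the 12 libraries was nearest to that of KLF4 and KLF11 were found among 10094 genes, by the root mean square difference of centred log2 CPM. For KLF11, whose own SD over libraries was 0.773, these were PAQR5 (0.116), a membrane progestin receptor, and GNE (0.149), an enzyme of sialic acid synthesis. Their log2 fold changes with T3 were -1.54 and -1.79 in TRB cells and -0.47 and -0.59 in EV cells. For KLF4, with an SD of 0.541, they were AGMAT (0.137) and TLE1 (0.157), a Groucho family co-repressor. Their log2 fold changes with T3 were -1.25 and -0.99 in TRB cells and -0.14 and 0.02 in EV cells. Since these genes were chosen by their pattern over the same libraries, T3 responses like those of KLF4 and KLF11 follow from the choice.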

How the data were processed

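The deposited files give, for each of the 12 libraries, raw read counts per gene symbol, which the authors made before deposit. The submitters' processing notes name CASAVA 1.7, STAR 2.7, HTSeq 0.10, DESeq2 and the build hg38; the annotation, strand and counting options are not given in the sources used here. Per the labels, RNA with an integrity number above 7 was used, 1 ug per library. Nothing says that replicates came from separate cultures, so p-values measure only the spread between these libraries.

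Summary lines of the counting that name no gene were left out: of all reads listed, 2.14% to 24.4% had no feature, 0.258% to 1.81% were ambiguous and 19% to 92% were not unique. The share not unique in EV replicates 1, 2 and 3 was 66.3%, 33.1% and 37.9% with vehicle and 77.7%, 69.6% and 92% with T3. In TRB cells it was 66.9%, 43.7% and 46.4% with vehicle and 58.9%, 19% and 66.6% with T3. The part of this difference in the results was not tested. Counts were fitted in edgeR 4.0.16 (R 4.3.3) by the quasi-likelihood test over all 4 groups, with TMM scaling, filterByExpr (minimum count 10, minimum total 15) and Benjamini-Hochberg adjustment over all tested genes at 0.05. DESeq2 1.42.0 was an alternative. GC content and lengths came from GENCODE 29. On counts simulated for T3 in TRB cells (14196 genes, 200 changed), 100% of the 2-fold and 4-fold changes were recovered and 3.85% of calls were false. Every simulated gene had the biological coefficient of variation of the 11-library fit (0.131), and no GC trend was put into any library. The changed genes were picked from those above a low level. These shares therefore do not describe the fit of the real 12 libraries, where the coefficient was 0.329.

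The members and lists were chosen with earlier results of these data known. All 10 members are named, at most 4 genes of each other list among those called with 12 libraries, and the 2 genes nearest in pattern to KLF4 and KLF11. MEF2D, CTBP2, EP300, CREBBP, CDKN1A, PLAU and LGALS3, called with 11 libraries only, were named after their values were seen. One thyroid marker is not reported here, and the summed level of that list leaves it out.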

Additional observations from a re-analysis of the deposited data

Results flagged for a closer look

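For 2 of the 8 tested members the response to T3 differed between TRB and EV cells by a test of the difference itself, on 12 libraries. In that test 2.59% of all genes were called. KLF4 had a difference of -1.20 on the log2 scale (edgeR adjusted p = 0.0348), from a log2 fold change with T3 of -1.32 in TRB cells and -0.12 in EV cells. KLF11 had a difference of -1.05 (edgeR adjusted p = 0.049), from -1.74 in TRB cells and -0.69 in EV cells. Over 18 alternative settings the difference was called in 6 for KLF4 and 5 for KLF11, with values of -1.37 to -0.57 and -1.26 to -1.003. The share of all genes called in these settings ran from 0.783% with no count filter to 34.4% with GC offsets on 11 libraries. In both genes the 3 TRB libraries with T3 had the lowest CPM of all 12, and the share of all genes with that order was not computed. After removal of each library's GC trend, KLF4 in replicate 2 of that group was at 60.6 CPM, above the 3 TRB vehicle libraries.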

How the results depend on the processing

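Of 752 member values under the alternatives, 630 kept their direction and their side of the threshold, most of them called in neither fit. Another 31 lost the call, 29 gained it and 62 changed sign, 2 of these passing in the alternative (KLF13). All lost calls were of KLF4 and KLF11, which lost the difference in response in 12 and 13 of 18 settings. KLF4 (-1.44 to -0.87) and KLF11 (-1.91 to -1.66) were called for T3 in TRB cells in 19 of 19 settings. Precision is limited by 3 libraries per group, and KLF2 and KLF7 by depth. Compared groups alone could not be used for the difference in response, which needs all 4 groups. Where a value or count below moved, the cause was not tested, except that fits on compared groups alone use 6 libraries in place of 12.

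For T3 in TRB cells 4 of 8 members were called with GC offsets on 12 libraries and 5 with them on 11, where 42.8% and 56.1% of all genes were. Leaving out 1 library gave 2 to 4, with 4 without TRB with T3 replicate 2. KLF5 turned to -0.0441 with upper-quartile factors, -0.01997 with no count filter, -0.014 with the replicate block, -0.0762 and -0.366 with GC offsets on 12 and 11 libraries, and -0.29 to 0.20 when libraries were left out. KLF13 turned to 0.0148 in DESeq2 and to 0.54 and 0.17 with GC offsets, with -0.22 to 0.31 when libraries were left out. KLF16 turned to 0.11 and 0.10 with GC offsets, with -0.84 to 0.10 when libraries were left out, and KLF3 to -0.0182 with GC offsets on 11.

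For T3 in EV cells DESeq2 and GC offsets on 12 libraries each called 1 member (1.05% and 4.47% of all genes), and GC offsets on 11 called 5 (17.7%). Leaving out 1 library gave 0 to 1, with 1 without TRB with T3 replicate 2. KLF4 ranged from -0.16 to 0.065 and KLF13 from -0.18 to 0.13 when libraries were left out. Between the vectors with vehicle, compared groups alone called 2 (11.2% of all genes). KLF6 turned to -0.0053 with no count filter and ranged from -0.0198 to 0.11 without single libraries. KLF13 turned to -0.0179 and -0.0154 with GC offsets, and KLF16 to -0.26 and -0.24, with -0.10 to 0.30 when libraries were left out.

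For TRB against EV cells with T3, 1 member was called with no count filter (2.19% of all genes), 0 with compared groups alone (0.241%) and 5 with GC offsets on 11 libraries (41.8%). Leaving out 1 library gave 1 to 5, with 5 without TRB with T3 replicate 2. KLF3 turned to -0.00503 and -0.0582 with GC offsets on 12 and 11 libraries, and KLF5 to -0.28 with them on 11. When libraries were left out KLF5 ranged from -0.23 to 0.26 and KLF13 from -0.0527 to 0.52.

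For the difference in response, no count filter and the replicate block each called 0 members (0.783% and 2.74% of all genes), and GC offsets on 11 libraries 4 (34.4%). Leaving out 1 library gave 0 to 2, with 0.918% to 15.2% of all genes called. KLF10 turned to -0.0843 with upper-quartile factors and to -0.0608 and -0.34 with GC offsets, with -0.25 to 0.18 when libraries were left out. KLF13 turned to -0.0571 with upper-quartile factors and -0.00953 with the replicate block, with -0.21 to 0.37 when libraries were left out. KLF16 turned to 0.11 and 0.10 with GC offsets.

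Same-numbered libraries did not deviate together throughout (correlation -0.19 to 0.728), so the numbers were not taken to pair them. With the replicate block 3, 0, 0, 2 and 0 members were called in the 5 comparisons, in the order above; the third was KLF6 for T3 in TRB cells (-0.65, adjusted p = 0.0348). KLF4 and KLF11 missed the threshold for the difference in response (adjusted p = 0.0521 and 0.0546).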
